A study of Mus musculus with 4 samples.

Results

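Mature neurons of the mouse hippocampus were described from 157 single-cell barcodes, which were 2.50% of the 6281 barcodes with at least 200 detected genes. A barcode is the sequence tag shared by all RNA caught in 1 droplet, and a count of unique molecular identifiers (UMIs) gives the captured RNA molecules of a gene in that droplet. The neurons were chosen by measured values, and a barcode was kept when Snap25, Syt1, Grin2b, Nrgn and Slc17a7 together had at least 5 UMIs. It was left out when newborn-neuron genes (Igfbpl1 and Sox11), Cajal-Retzius genes (Ndnf, Lhx1 and Trp73) or genes of glia and endothelium (P2ry12, Cx3cr1, Mog, Pdgfra, Gja1 and Cldn5) had more than 2 UMIs in sum. The levels of those genes, and the comparison of the neurons with all other cells, are therefore given as description with no test. The neurons are reported in 2 classes, with at most 20% and with over 20% of their UMIs from the 13 mt- genes, the genes of the mitochondrial genome.

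The cells came from the hippocampi of 4 male mice aged 3 months, of which 2 were Dp(10)2Yey and 2 were wild-type (WT) littermates. Both genotypes were on the C57BL/6J background, and 1 droplet library was made from each mouse after enzymatic dissociation and removal of debris. Dp(10)2Yey mice are hemizygous for a duplication of a segment of chromosome 10 that corresponds to part of human chromosome 21, so they carry 3 copies of its genes where WT mice carry 2, and they serve as a partial model of Down syndrome. The duplication is present in all tissues from the germline on, covers only some of the genes that are triplicated in people, and with 1 library per mouse, differences between mice and between libraries cannot be told apart. Tissue was prepared on consecutive days with 1 WT and 1 Dp(10)2Yey mouse per day, but the day of each numbered replicate is not stated in the sources used here.

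Most neurons of the hippocampus are excitatory and release glutamate, which the vesicular transporter encoded by Slc17a7 loads into synaptic vesicles. Granule cells of the dentate gyrus send mossy fibers to CA3 pyramidal cells, which project to CA1, and CA1 pyramidal cells project to the subiculum, a circuit that is needed for spatial and episodic memory. Local interneurons that release GABA set the timing and strength of this excitation.

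The libraries held 1039, 1708, 1372 and 2345 barcodes with 3002546, 6848466, 5112759 and 9612011 UMIs, in the order WT replicate 1, WT replicate 2, Dp(10)2Yey replicate 1 and Dp(10)2Yey replicate 2, and values for 4 libraries are given in this order throughout. Of the barcodes with at least 200 genes, 16, 60, 29 and 52 were mature neurons, with 39690, 330315, 119955 and 277467 UMIs in sum. WT replicate 1 was thus the smallest sum, and a single cell held 30.4% of its neuronal UMIs, against 6.96%, 22.7% and 13.0% for the largest cell of the others. The median neuron had 1665.5, 3558.5, 2199 and 2328.5 UMIs, and over all 157 neurons the total ran from 521 to 36133 UMIs with a median of 2439. Libraries shared 8 barcode sequences in all, and 0 of them belonged to a mature neuron in either library. Scrublet called 54 doublets, 0.86% of the barcodes, and 0 of them were mature neurons.

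The sum of the 5 neuronal genes reached 5 UMIs in 230 barcodes, of which 157 were kept. The others were over the limit on newborn-neuron genes (12), Cajal-Retzius genes (27) or genes of glia and endothelium (41), with 7 of them over more than 1 limit. Of the 157 neurons, 91 had at most 20% mt- UMIs (6, 42, 9 and 34 per library) and 66 had over 20% (10, 18, 20 and 18). The class with at most 20% was deeper, with a median of 3418 UMIs and 1600 genes per cell against 2085.5 UMIs and 793.5 genes, and its median mt- share was 5.82% against 30.9%. Its neuronal sum had a median of 22 UMIs against 7, and 14 of the 66 neurons over 20% stood at exactly 5 UMIs against 7 of the 91 others.

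Just outside the rule, 34 barcodes with a neuronal sum of 4 UMIs had a median of 1754.5 UMIs, a median mt- share of 31.9% and a Camk2a UMI in 76.5%. Just inside it, the 21 barcodes with a sum of 5 had 1369 UMIs, 23.5% and 81.0%. At the border between the classes, the 16 neurons with 15 to 20% mt- UMIs had a median Malat1 share of 4.19% of their UMIs outside mt- genes, and the 14 neurons with 20 to 25% had a median of 0. Malat1, a long non-coding RNA kept in the nucleus, had 0 UMIs in 9 of the 91 neurons with at most 20% and in 35 of the 66 over 20%.

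**Figure D1:**
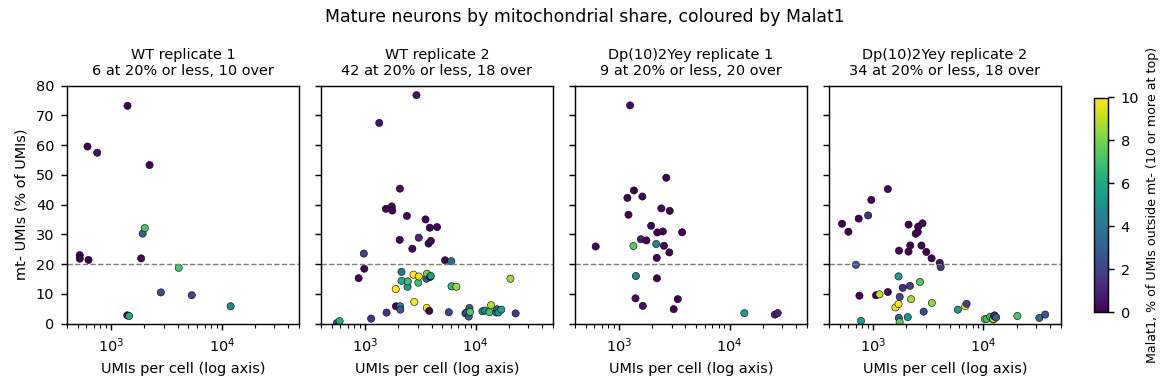
Mature neurons by depth and mitochondrial share. Each point is 1 of the 157 neurons, with its UMIs on a log axis, the percentage of its UMIs from mt- genes, and its Malat1 share of UMIs outside mt- genes as color, in 1 panel per library, and most points above the dashed line at 20% have little Malat1.

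The label was checked against markers that the rule did not use. Camk2a, the alpha subunit of the calcium- and calmodulin-dependent kinase II of excitatory synapses, had a UMI in 138 of 157 neurons (87.9%) and in 5.78% of 2613 microglia, which should lack it and stand for the background from free RNA. Gria2, a subunit of AMPA-type glutamate receptors, had one in 68.8% against 1.68%, and Meg3, a long non-coding RNA abundant in neurons, in 61.8% against 2.18%. By class, Gria2 was found in 90.1% of the neurons with at most 20% mt- UMIs and in 39.4% of those over 20%. For Camk2a the shares were 92.3% and 81.8%. Of the 66 over 20%, 35 had 0 Malat1 UMIs and 32 had a neuronal sum of 5 or 6. The label is thus less certain for that class, and neurons here means barcodes that met the rule. The microglia were the deeper cells, with a median of 3723 UMIs against 2439 in the neurons. After thinning each cell to 500 UMIs outside mt- genes, which 91 of 91, 54 of 66 and 2575 of 2613 cells reached, Camk2a was found in 45.1% of the neurons with at most 20% mt- UMIs, 55.6% of those over 20% and 1.13% of microglia. For Meg3 the thinned shares were 61.5%, 16.7% and 0.272%, where the unthinned ones were 83.5%, 31.8% and 2.18%. The genes of the rule were found in 89.2% (Nrgn), 76.4% (Snap25), 75.2% (Syt1), 74.5% (Slc17a7) and 70.1% (Grin2b) of the neurons. Slc17a6, the vesicular glutamate transporter typical of other brain regions, had a UMI in 3 neurons.

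Levels are in CPM, a scaled count of the UMIs of a gene on which 100 CPM is 0.01% of the UMIs outside mt- genes in the sum of a library's neurons. The most abundant transcript by the mean of the 4 libraries was Malat1, at 35660.1, 46498, 13551 and 46885 CPM, followed by Gm42418 at 24083, 19173.5, 14484 and 6397 CPM, which lay above Malat1 in Dp(10)2Yey replicate 1. Dp(10)2Yey replicate 1 was thus low for Malat1, and the other Dp(10)2Yey library lay beside the WT libraries. Gm42418 overlaps a ribosomal RNA repeat, so its counts are uncertain. Next came Tmsb4x, which binds actin monomers, with a mean of 7798 CPM over the 4 libraries, Fth1, the ferritin heavy chain, with 7310.4, and Nrgn, the calmodulin-binding protein neurogranin, with 5237. Ppp3ca, the catalytic subunit of calcineurin, had a mean of 4019.6 CPM, and the calmodulin gene Calm2 had 3961. Actb, the cytoplasmic actin, had 3091 and Meg3 3260.5, and the ribosomal protein genes Rps29, Rplp1, Rpl41, Rpl37 and Rps21 lay between 3022 and 4359 CPM. Ribosomal protein genes have processed pseudogenes of near-identical sequence, so their counts are uncertain too.

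Against all other cells with at least 200 genes, and with 10 CPM added to both levels, the largest fold was 73.3 for Nrgn (5237 against 61.5 CPM). Among genes outside the rule it was 60.9 for Cck, the peptide cholecystokinin, at a mean of 1516 CPM in the neurons. Among subunits of glutamate receptors it was 51.2 for Grin2b of the rule, 47.2 for its NMDA receptor partner Grin2a and 33.4 for the AMPA receptor subunit Gria1. Hpca, the calcium sensor hippocalcin, had a fold of 33.7, and C1ql3, a secreted synaptic C1q-like protein, 32.7. The sodium pump subunit Atp1b1 had 28.9, Chn1, a Rac-inactivating protein, 30.5, and Ryr2, a calcium release channel, 29.6. Meg3 had 32.6, Syt1, the calcium sensor of vesicle release, 39.7, Slc17a7 36.2 and Snap25, a core protein of vesicle fusion, 31.0. Microglial marker genes were low, with a sum over 9 genes of 61.9, 170.3, 97.2 and 139 CPM and Tyrobp as the most abundant. Endothelial genes summed to 340.5, 476.9, 359.7 and 522.8 CPM, with Bsg as the most abundant and Ly6c1 at 0 UMIs. Genes of oligodendrocyte precursors summed to 340.5, 30.7, 29.2 and 34.9 CPM, with Olig1 as the most abundant and Cspg4 at 0. Cldn5, which the rule limits, was at 0 UMIs in all 157 neurons. Oligodendrocyte genes summed to 2755, 1553, 2809 and 697 CPM and astrocyte genes to 929, 1451, 4034 and 1541 CPM.

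Dentate granule cell genes, the longest of the subtype lists, reached 2 UMIs in the most neurons, and lengths of 4 to 7 genes for the others limit a comparison of the lists. At least 2 UMIs of an 11-gene list with Prox1, C1ql2, C1ql3, Calb1 and Stxbp6 were found in 72 of 157 neurons (5, 34, 10 and 23 per library), or 45.9%, against 1.84% of the microglia. They made up 63 of the 91 neurons with at most 20% mt- UMIs and 9 of the 66 over 20%, and after thinning to 500 UMIs 39.6% and 9.26%, against 0.0777% of microglia. CA1 pyramidal genes reached 2 UMIs in 35 neurons (0, 11, 6 and 18), 22.3% against a background of 10.3%, and the list holds Man1a, which was at a mean of 124 CPM in the microglia. They were 23 of the 91 neurons with at most 20% mt- UMIs and 12 of the 66 over 20%, where the dentate list had fewer. Thinned, the CA1 shares were 5.49% and 7.41% of the 2 classes and 0.388% of microglia. CA2 genes, mostly Pcp4, reached 2 UMIs in 50 neurons, CA3 genes in 24, subiculum genes in 20 and genes of the mossy cells of the dentate hilus in 9, with 1.53%, 0.459%, 4.82% and 2.72% of the microglia. The lists overlap within cells, as 16 neurons reached 2 UMIs for both the dentate and the CA1 list.

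Genes of GABAergic neurons were found in few of the cells. At least 2 UMIs of Gad1, Gad2 and Slc32a1, which make GABA and load it into vesicles, were found in 14 neurons (1, 8, 1 and 4), 8.92% of the 157, against 1 of 2613 microglia. Of their 128 UMIs of these genes 101 lay in 2 cells, 62 in 1 of WT replicate 2 and 39 in 1 of Dp(10)2Yey replicate 2, and the other 12 neurons had 2 to 4 each, 10 of the 14 being at exactly 2. Only 3 of the 14 had no Slc17a7 UMI, so most of them also carried this excitatory transcript, and the 14 are not a count of GABAergic neurons. The neurons over 20% mt- UMIs had 0 of 66, but after thinning to 500 UMIs 1 of 91 and 0 of 54 were left in the 2 classes, so the classes cannot be compared at this depth. Since Slc17a7 is 1 of the 5 genes of the rule, cells without it needed their 5 UMIs from the other 4 genes. The cannabinoid receptor Cnr1, found on some interneurons, had 412 UMIs, of which 361 lay in a single cell of WT replicate 2. The interneuron genes were rare, with Pvalb at 2, 6, 0 and 2 UMIs, Npy at 0, 1, 5 and 5, Sst at 0, 1, 2 and 7, Calb2 at 2 UMIs in 1 neuron of Dp(10)2Yey replicate 1 and Vip at 1 UMI. These genes were too rare in the neurons to be tested between genotypes, except Cnr1.

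Within mice, the neurons over 20% mt- UMIs, whose label is less certain, carried more myelin, astrocyte and ribosomal protein transcripts than the others. They carried less of the nuclear RNAs Malat1 and Meg3. Also lower were 4 of the 5 tested genes of excitatory neurons and C1ql3, a gene of dentate granule cells. The comparison asked what else differs between the 2 classes, so the 13 mt- genes were left out, UMIs were summed per mouse and class, and the 8 sums were compared with edgeR's two-sided quasi-likelihood test with the mouse as a block (n = 4 mice). A gene passed at a Benjamini-Hochberg adjusted p under 0.01, and fold changes are fitted log2 values of over 20% against at most 20%, with their standard error (SE). Of 501 genes tested, 104 passed (20.8%), 61 of them higher over 20% (12.2%) and 43 lower (8.58%), and at an unadjusted p under 0.05 there were 239 (47.7%). The 501 hold the 5 genes of the rule, which chose the cells, and of these Nrgn is among the 43 lower. Over all genes tested the median was -0.17, and 44.5% were above 0. The minimum of 10 cells per library for a genotype test was not applied to the classes. With at most 20%, WT replicate 1 had 6 cells and Dp(10)2Yey replicate 1 had 9. A single cell held 44.3% and 34.1% of their UMIs, mt- genes included, and a smaller share in each other sum. Without the largest cell of each class and library, 91 of the 104 genes could be tested. All 91 kept their sign and 49 still passed in edgeR.

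The largest rise was that of Mobp, a protein of compact myelin, which was at 0, 42.7, 52.4 and 51.7 CPM in the neurons with at most 20% mt- UMIs and at 1071, 1203, 1546 and 723 CPM in those over 20%. Mbp, myelin basic protein, whose mRNA is carried into the processes of oligodendrocytes, was at 322, 380.1, 367 and 121 CPM and at 5757, 4560.2, 6976 and 3917 CPM. For both genes all 4 values over 20% lay above all 4 values of the other class, and they rose by 4.58 (SE 0.46, adjusted p = 8.51e-09) and 4.26 (SE 0.38, adjusted p = 8.38e-10). The astrocyte enzyme Aldoc was at 40.3, 81.4, 236 and 21.6 CPM and at 536, 1231, 1659 and 2319.9 CPM and rose by 4.28 (SE 0.45, adjusted p = 1.47e-08). The astrocyte glutamate transporter Slc1a2 rose by 3.71, the lipid carrier Apoe by 3.67, the metallothionein Mt1 by 3.11, Ndrg2 by 4.13 and the protease inhibitor Cst3 by 2.51. The RNA-binding protein Qk rose by 2.94, the pterin reductase Qdpr by 3.18 and the acyl-CoA-binding protein Dbi by 2.96. A neuronal gene among these was Kif5a, a kinesin motor of axonal transport, at 121, 202, 458 and 134 CPM and at 536, 1846, 3017 and 1787 CPM, with a rise of 3.16 (SE 0.33, adjusted p = 1.63e-08). Lars2, the mitochondrial leucyl-tRNA synthetase, rose by 2.99 and Gm42418 by 2.51, and both counts are uncertain because they share sequence with mitochondrial and cytosolic ribosomal RNA. These 14 genes were higher over 20% in 4 of 4 mice and also passed without each of the 4 libraries in turn, but in WT replicate 1 Mt1, Apoe and Dbi were nearly equal in the 2 classes, with log2 ratios of 0.03, 0.15 and 0.21.

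The sums of the oligodendrocyte and astrocyte lists were higher over 20% in 4 of 4 mice. Over all 501 genes tested 12.2% rose and 8.58% fell. The filter on low counts can admit a gene such as Mobp through the sums over 20% alone. The counts of tested members of these lists that rose are therefore description, and they cannot be set against the share over all genes. The sums of the microglial and oligodendrocyte precursor lists, given below, did not move the same way in each mouse. Of 6 oligodendrocyte genes 3 were tested and all 3 rose (Mobp and Mbp among them, median 4.26), and the sum over the list, with Mbp as the most abundant, went from 403, 690.4, 563 and 207 CPM to 10577, 7778, 9276 and 5020.2 CPM. Of 6 astrocyte genes 3 were tested and all 3 rose (Aldoc, Slc1a2 and Clu, median 3.71), with a sum of 604, 648, 1912 and 345 CPM against 2008, 7246, 10143 and 12094 CPM and Slc1a2 as the most abundant. The 6 genes of the glia and endothelium limit, which the rule held at 2 UMIs per cell, summed to 121, 15.5, 65.5 and 12.9 CPM against 0, 139.9, 226 and 228 CPM. In the same libraries all other cells held Mbp at 1121, 1586, 1864 and 1149 CPM. Mbp was thus higher in the neurons over 20% than in all other cells in 4 of 4 libraries, while the sum over the oligodendrocyte list, at 11136, 18060.4, 15367 and 13022 CPM in all other cells, was lower in the neurons over 20% in 4 of 4. Microglial genes summed to 80.5, 171, 78.6 and 134 CPM and 0, 168, 151 and 190.2 CPM with 0 of 9 tested, and for oligodendrocyte precursors 0 of 4 were tested, with sums of 443, 11.6, 0 and 0 CPM and 0, 168, 113 and 342 CPM, Olig1 as the most abundant and Cspg4 at 0. Endothelial genes had 1 of 5 tested and 0 passing, sums of 403, 508, 432 and 526 CPM and 134, 252, 151 and 494 CPM, Bsg as the most abundant and Ly6c1 at 0. For the ependymal and choroid plexus genes, with Ccdc153, Dynlrb2 and Tmem212 at 0, Ttr made up most of the sum of 10230.5 CPM over 20% in Dp(10)2Yey replicate 2, and 253 of its 257 UMIs lay in 1 cell. Hemoglobin genes had 0 of 4 tested and sums of 282, 11.6, 105 and 64.7 CPM and 0, 28.0, 113 and 342 CPM, with Hba-a1 as the most abundant. The part of RNA or fragments of other cells in the differences between the classes was not tested.

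Over the pooled neurons, UMIs of Mbp and of Slc1a2 were also found in a larger share of those over 20% mt- UMIs, although not in each library. Mbp had a UMI in 51.6% of the neurons with at most 20% mt- UMIs, 62.1% of those over 20% and 21.9% of microglia, and after thinning to 500 UMIs in 17.6%, 68.5% and 6.25%. For Slc1a2 the shares were 64.8%, 77.3% and 13.3%, and thinned 20.9%, 75.9% and 4.12%. By library, Mbp was found in 3 of 6, 22 of 42, 5 of 9 and 17 of 34 neurons with at most 20% and in 3 of 10, 12 of 18, 14 of 20 and 12 of 18 over 20%, a lower share over 20% in WT replicate 1. Slc1a2 was found in 3 of 6, 25 of 42, 8 of 9 and 23 of 34 against 5 of 10, 16 of 18, 17 of 20 and 13 of 18, so its share over 20% was equal in WT replicate 1 and lower in Dp(10)2Yey replicate 1. Over the pooled neurons Malat1 went the other way, from 90.1% to 47.0%, and thinned from 89.0% to 31.5%, with 82.8% of microglia, which express it.

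**Figure D2:**
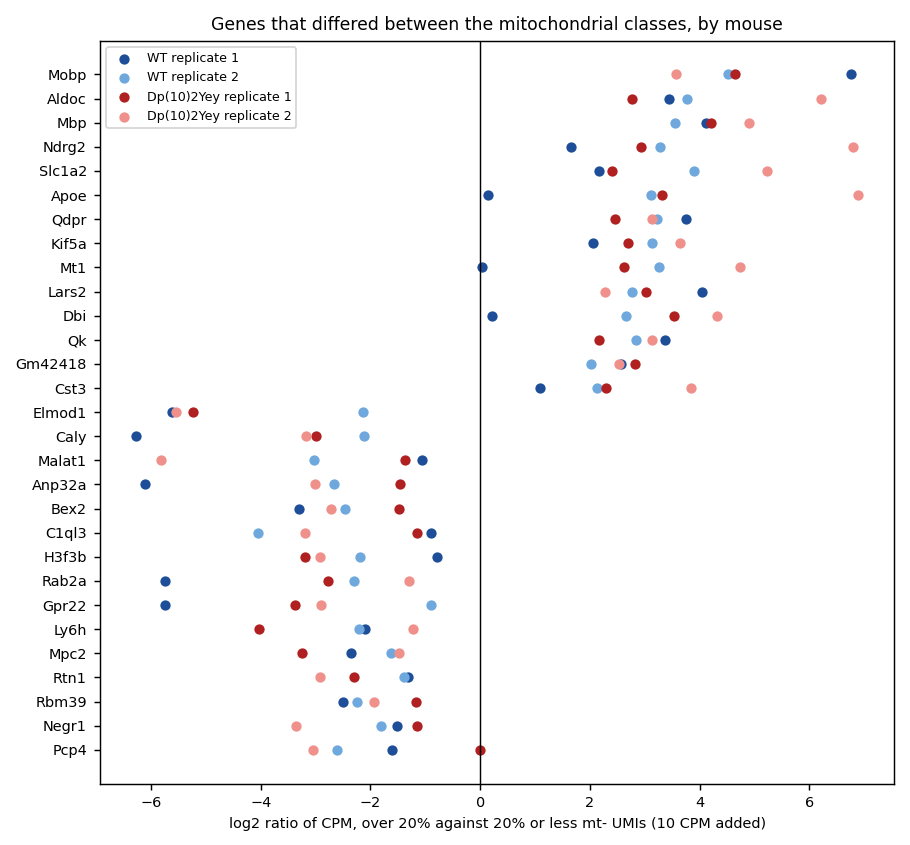
Genes with 14 of the largest rises and the 15 largest falls between the mitochondrial classes that passed and went the same way in 4 of 4 mice. Each point is the log2 ratio of CPM of over 20% against at most 20% mt- UMIs in 1 mouse (10 CPM added to both), with WT in blue and Dp(10)2Yey in red.

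Malat1 was at 40546, 52064, 16097 and 52096.5 CPM in the neurons with at most 20% mt- UMIs and at 19414, 6351, 6222 and 913 CPM in those over 20%. It was lower over 20% in each of the 4 mice, although Dp(10)2Yey replicate 1 with at most 20% lay below WT replicate 1 over 20%, and it fell by 2.59 (SE 0.61, adjusted p = 0.00187). The largest fall was that of Elmod1, a GTPase-activating protein, at 483, 527, 367 and 457 CPM against 0, 112, 0 and 0 CPM, which fell by 3.52 (SE 0.72, adjusted p = 4.74e-04). Caly, a vesicular protein of neurons, fell by 2.85, the phosphatase inhibitor Anp32a by 2.53, Bex2 by 2.32, the histone gene H3f3b by 2.28 and the endoplasmic reticulum protein Rtn1 by 1.96. C1ql3, which is strong in dentate granule cells, was at 2738, 2017, 681 and 1828 CPM and at 1473, 112, 302 and 190.2 CPM and fell by 2.29. The small GTPase Rab2a fell by 2.24, the orphan receptor Gpr22 by 2.14, Ly6h by 2.13, the mitochondrial pyruvate carrier Mpc2 by 1.96, the splicing factor Rbm39 by 1.95, the adhesion protein Negr1 by 1.90 and the calmodulin regulator Pcp4 by 1.89. All 15 were lower over 20% in 4 of 4 mice, with nearly equal values only for Pcp4 in Dp(10)2Yey replicate 1, and kept their direction without each library in turn wherever they could be tested, as Elmod1, Anp32a, Gpr22 and Rbm39 could not without WT replicate 2. Without WT replicate 2 the adjusted p was 0.0252 for Malat1, 0.0146 for C1ql3, 0.0251 for Rab2a, 0.0115 for Ly6h, 0.0194 for Mpc2, 0.0583 for Negr1 and 0.0320 for Pcp4. Without Dp(10)2Yey replicate 1 it was 0.0154 for Rab2a, 0.0596 for Gpr22, 0.0158 for Mpc2 and 0.0224 for Negr1, and without Dp(10)2Yey replicate 2 0.0107 for Malat1, 0.0235 for Gpr22, 0.0165 for Rbm39, 0.0775 for Negr1 and 0.0180 for Pcp4.

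Excitatory and synaptic genes mostly fell or did not pass, with Camk2a and Map2 as exceptions. Camk2a, whose mRNA is carried into dendrites, was at 1127, 776, 786 and 858 CPM in the neurons with at most 20% mt- UMIs and at 1874, 2378, 1961 and 2472 CPM in those over 20%. All 4 values over 20% lay above all 4 others, and it rose by 1.37 (SE 0.32, adjusted p = 0.00176). Map2, the dendritic microtubule-associated protein, rose by 1.62 (adjusted p = 5.92e-04). Of the 10 genes of the excitatory list 5 were tested, of which Camk2a rose and 4 fell, namely Nrn1 by 1.76, Cck by 1.43, Chn1 by 1.17 and Olfm1 by 1.14 (list median -1.17), beside 12.2% rising and 8.58% falling over all 501 genes. Of 10 pan-neuronal genes tested, Map2 rose, Stmn3 fell by 1.57 and Atp1b1 by 1.55, and 7 did not pass, such as Ndrg4 at -0.24 (median -0.47). Among genes of synaptic vesicles and release 6 were tested, and Rab3a, a small GTPase of vesicles, fell by 1.73 while Nsf at -1.20, Cplx2 at 0.20 and 3 others did not pass. Among 10 tested genes of the postsynaptic density Camk2a alone passed (median 0.04), with Ppp3ca at -0.97 and Camk2n1 at 0.68. None of 4 ionotropic glutamate receptor genes tested (Gria1 -0.37, Gria2 -1.07, Gria3 -1.15 and Grin2a -0.32), of 3 GABA receptor genes (Gabbr1 -0.39 among them), of 4 genes of voltage-gated channels (Scn2a -0.28 among them, median -0.18) and 1 metabotropic glutamate receptor gene (Grm5) passed in edgeR. Of the rule's genes, which are given as description, Nrgn had -1.13 and the other 4 lay between -0.96 (Syt1) and 0.78 (Slc17a7). Map2 and Nrn1 were named after their values were seen.

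All 3 tested long non-coding RNAs that are kept in the nucleus fell, with Malat1 above. Meg3 was at 3060.1, 4006, 2947 and 4368 CPM and at 1874, 3301, 754 and 304 CPM, lower over 20% in 4 of 4 mice, and fell by 1.52 (SE 0.44, adjusted p = 0.00792). Snhg11, a host transcript of small nucleolar RNAs, was at 1007, 1129, 1087 and 1979 CPM and at 0, 1203, 189 and 114 CPM, lower over 20% in 3 of 4 mice and slightly higher in WT replicate 2, and fell by 1.79 (adjusted p = 0.00520). The difference of its fall between the genotypes was -2.84 (adjusted p = 0.172 in edgeR). With the classes split at 10% in place of 20%, Meg3 was at 0.12 and Atp1b1 at 0.14. Several neuronal genes kept their direction but no longer passed when 1 library was left out. Without WT replicate 2 the adjusted p was 0.0541 for Camk2a, 0.0444 for Map2, 0.0123 for Cck, 0.0205 for Chn1, 0.0391 for Nrn1, 0.0632 for Olfm1, 0.0194 for Atp1b1 and 0.0105 for Rab3a. Without Dp(10)2Yey replicate 1 it was 0.0329 for Camk2a, 0.163 for Cck, 0.0799 for Chn1, 0.0249 for Nrn1, 0.0559 for Olfm1, 0.0157 for Atp1b1, 0.0123 for Stmn3, 0.0102 for Rab3a, 0.0539 for Meg3 and 0.0178 for Snhg11. Without Dp(10)2Yey replicate 2 it was 0.0229 for Camk2a, 0.0366 for Map2, 0.0240 for Cck, 0.0678 for Chn1, 0.0303 for Nrn1, 0.110 for Olfm1, 0.0320 for Atp1b1, 0.0227 for Stmn3, 0.0371 for Rab3a, 0.165 for Meg3 and 0.0741 for Snhg11.

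Of the ribosomal protein genes 22 rose and 0 fell, beside 12.2% rising and 8.58% falling over all 501 genes. Of 83 cytosolic ribosomal protein genes 77 were tested and 55 did not pass, and 74 of the 77 had a fold change above 0, with a median of 0.94 beside -0.17 and 44.5% above 0 over all 501 genes. Their sum was 77669.5, 90611, 95705 and 74646 CPM in the neurons with at most 20% mt- UMIs and 80064, 157649, 221757 and 214726 CPM in those over 20%. The sums of WT replicate 1 differed little between the classes, and those of the other 3 libraries differed by far more. Rplp1, a protein of the ribosomal stalk, rose by 1.69 (adjusted p = 5.08e-04) and Rps29, the most abundant of the list, by 1.46 (adjusted p = 0.00386). The nuclear genes of oxidative phosphorylation, which encode partners of the mt- proteins that define the classes, had 56 tested, of which 3 rose, a smaller share than over all genes, 0 fell and 28 were above 0, with a median of 0.02. Their sum was 44935, 43236.5, 46995 and 42939 CPM and over 20% 37354, 50946, 63047 and 67126 CPM, so it was higher over 20% in 3 of 4 mice and lower in WT replicate 1. Those that rose were Cox8a by 1.42 and, named after their values were seen, Cox6a1 by 2.03 and Ndufb9 by 1.41. Heat shock genes did not pass in any of 5 tested, among them Hsp90aa1 at -1.04 and Hspa8 at -0.51, with all 5 below 0 and a median of -0.75. The 22 immediate early genes had too few UMIs to be tested, and their sum was 1329, 1245, 2318 and 1138 CPM and 937, 671, 754 and 532 CPM. Without WT replicate 2 the adjusted p was 0.0446 for Rps29, 0.0320 for Cox8a and 0.0737 for Ndufb9, without Dp(10)2Yey replicate 1 0.0539 for Rps29, 0.0119 for Rplp1, 0.0539 for Cox8a and 0.0521 for Ndufb9 and without Dp(10)2Yey replicate 2 0.0620 for Rps29, 0.0112 for Rplp1, 0.0424 for Cox8a and 0.0227 for Ndufb9.

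**Figure D3:**
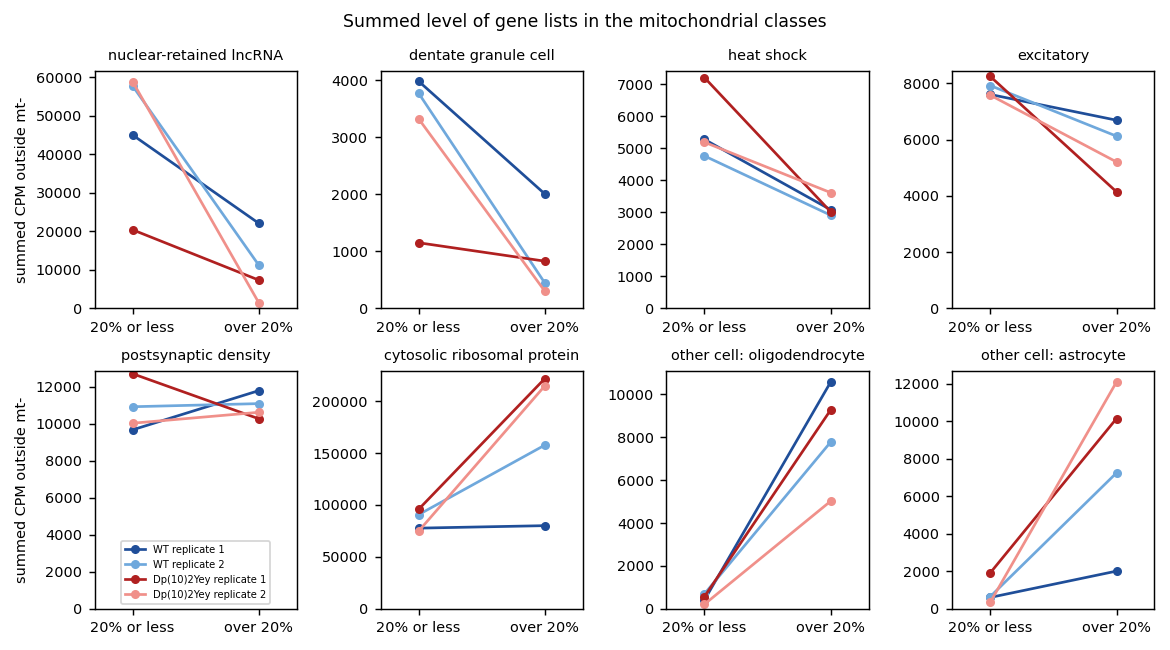
Summed CPM outside mt- genes of 8 gene lists in the neurons with at most 20% and over 20% mt- UMIs. Each line joins the 2 classes of 1 mouse, with WT in blue and Dp(10)2Yey in red, and oligodendrocyte and astrocyte genes are higher over 20% in 4 of 4 mice while nuclear-retained long non-coding RNAs are lower in 4 of 4.

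The number of genes that passed between the classes depended on the libraries and cells. It was 279 without WT replicate 1, 33 without WT replicate 2, 43 without Dp(10)2Yey replicate 1 and 37 without Dp(10)2Yey replicate 2. Thinning each cell to 500 UMIs left 93 genes to test, of which 0 passed in edgeR (26 at an unadjusted p under 0.05), and the 41 of the 104 genes that could still be tested all had the same sign. DESeq2 called 94 genes, 88 of them among the 104. The class with over 20% was shallower and closer to the limit of 5 UMIs, and the part of depth and of the selection in these differences was not tested.

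Whether the class difference depends on the genotype was tested by the interaction of class and genotype in the same edgeR model, and 0 of 501 genes passed (0%). At an unadjusted p under 0.05 there were 41 genes (8.18%), 49.9% of the interactions were above 0, and DESeq2 called 0 with 18 at an unadjusted p under 0.05. Serinc1, a protein that carries serine into membrane lipids, had the smallest p, with an interaction of -2.79 and an adjusted p of 0.172, and Meg3 had -2.30 and 0.172. For Malat1 it was -1.38 (adjusted p = 0.710) and for Lars2 -0.54 (adjusted p = 0.815).

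Between genotypes, no gene passed the test over all neurons. UMIs were summed over the neurons of each mouse and Dp(10)2Yey (n = 2) was compared with WT (n = 2) by edgeR's two-sided quasi-likelihood test, with fold changes of Dp(10)2Yey over WT. Of 3957 genes tested 0 passed (0%), with 166 at an unadjusted p under 0.05 (4.2%), of which 93 were higher in Dp(10)2Yey, and DESeq2 called 0 with 30 at an unadjusted p under 0.05. The smallest p belonged to Nnat, neuronatin, a proteolipid of the endoplasmic reticulum, which was at 0, 68.1, 204 and 429.9 CPM, with a log2 fold change of 2.49 (SE 0.49) and an adjusted p of 0.288. Both Dp(10)2Yey values lay above both WT values, and 95 of its 152 UMIs came from 1 cell of Dp(10)2Yey replicate 2. Lars2 was at 1517, 1434, 612 and 364 CPM, with both Dp(10)2Yey values below both WT values, a log2 fold change of -1.60 (SE 0.36) and an adjusted p of 0.288. Cnr1, at 0, 1301, 77.8 and 85.2 CPM, had -3.30, with 361 of the 382 UMIs of WT replicate 2 in the single cell named above. The hemoglobin gene Hbb-bs had 0, 2, 7 and 18 UMIs and the 4 hemoglobin genes summed to 217, 13.6, 107 and 92.9 CPM. Nnat was chosen after its values were seen.

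Settings other than the main one called genes in the neurons, and for some of these genes most UMIs came from a single cell. The test in edgeR called 7 genes without WT replicate 1, 13 without WT replicate 2, 11 when Dp(10)2Yey replicate 1 was left out, 17 without Dp(10)2Yey replicate 2 and 10 without the filter on low counts. Of Pf4 and Ppbp, genes of platelets, 69 of 71 and 34 of 34 UMIs lay in a single barcode of WT replicate 1, of Ctla2a 28 of 36 in 1 cell of the same library and of Ttr, the choroid plexus transthyretin, 253 of 257 in 1 cell of Dp(10)2Yey replicate 2. The replicate number as a block gave 5 genes, among them Cnr1 and the protease inhibitor Serpini1, lower in Dp(10)2Yey, and Nnat and Gap43, a protein of growing axons, higher. Of the 230 Serpini1 UMIs 172 lay in 1 cell of WT replicate 2, and of the 181 Gap43 UMIs 54 in 1 cell of Dp(10)2Yey replicate 2. The barcode with the platelet genes was 1 of the 6 of WT replicate 1 with at most 20% mt- UMIs and held 5.16% of their UMIs. It met the rule by 14 UMIs of Nrgn alone, with 0 of Snap25, Syt1, Grin2b, Slc17a7, Camk2a, Meg3 and Malat1, so its place among the neurons is uncertain. Without it, an alternative chosen after the data were seen, edgeR called 0 of 3949 genes between genotypes (169 at an unadjusted p under 0.05) and 102 of 499 between the mitochondrial classes. These genes were named after their values were seen.

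Within the neurons over 20% mt- UMIs, 7 of 396 genes tested were lower in Dp(10)2Yey and 0 higher (1.77%). At an unadjusted p under 0.05 there were 51 (12.9%), and 49% of the fold changes were above 0. Meg3 was at 1874, 3301, 754 and 304 CPM, with both Dp(10)2Yey values below both WT values, and fell by 2.64 (SE 0.49, adjusted p = 2.94e-05). Lars2, with the uncertainty named above, was at 5489, 5735, 1772 and 1293 CPM and fell by 2.19 (SE 0.54, adjusted p = 0.00510), also without overlap. Serinc1 fell by 3.26, Ptgds, the prostaglandin D2 synthase, by 2.52, Malat1 by 2.21 and Gria2 by 1.95, with adjusted p values from 0.00372 to 0.00979, and Malat1 was at 19414, 6351, 6222 and 913 CPM, with Dp(10)2Yey replicate 1 close to WT replicate 2. These sums rested on 10, 18, 20 and 18 cells and on 7469, 35744, 26520 and 26294 UMIs outside mt- genes, and Ptgds had 7, 28, 2 and 7 UMIs and Serinc1 7, 26, 2 and 3. Without WT replicate 1 edgeR called 2 genes, Meg3 and Snhg11, and without WT replicate 2, without Dp(10)2Yey replicate 1 or without Dp(10)2Yey replicate 2 it called 0, with 120, 9 and 10 at an unadjusted p under 0.05. DESeq2 called 0 (22 at an unadjusted p under 0.05), and without the filter on low counts 0 of 9440 genes passed. With the replicate block edgeR called 7, with Gm42418 in place of Ptgds. By lists, the fold changes over 20% had a median of -0.04 over all genes. Excitatory genes had 0 of 5 above 0 (median -0.93), vesicle and release genes 0 of 6 above 0 (median -1.41), ionotropic glutamate receptor genes 0 of 3 above 0 (median -0.99), GABA receptor genes 0 of 2 above 0 (median -1.43) and genes of the postsynaptic density 2 of 8 above 0 (median -0.55). Oligodendrocyte genes had 0 of 3 above 0 (median -0.31), astrocyte genes 4 of 4 above 0 (median 0.95) and ribosomal protein genes 73 of 78 above 0 (median 0.46). The difference of these effects from those in the other class is the interaction above, which no gene passed.

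In the neurons with at most 20% mt- UMIs, WT replicate 1 had 6 cells and Dp(10)2Yey replicate 1 had 9, fewer than the 10 per library set for a test. A fit made nevertheless called 0 of 3533 genes in edgeR (0%), with 143 at an unadjusted p under 0.05 (4.05%) and 51.1% of the fold changes above 0.

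Of the genes of the duplicated segment, all 10 that could be tested had a fitted fold change above 0 in Dp(10)2Yey over WT neurons. None passed on its own. The segment from Prmt2 to Pdxk (chromosome 10, 76207222 to 78464975, GRCm38) holds 62 protein-coding genes, of which 61 are in the files, 27 had a UMI in a mature neuron and 10 had enough to be tested. The median of the 10 was 0.97 and all 10 were above 0, beside a median of 0.02 and 51.6% above 0 over all 3957 genes, and 3 copies against 2 give 0.585. At an unadjusted p under 0.05 there were 5, and 0 passed after adjustment in edgeR. The filter on low counts keeps a gene that reaches a set level in 2 libraries. Pdxk (1, 13, 15 and 28 UMIs) and Prmt2 (0, 14, 8 and 33) reached it only in the Dp(10)2Yey libraries. The 10 of 10 above 0 are therefore given as description. S100b, a calcium-binding protein best known from astrocytes, was at 31.0, 106, 457 and 163 CPM, with both Dp(10)2Yey values above both WT values and a log2 fold change of 1.62 (SE 0.51, adjusted p = 0.860). Pdxk, the kinase that makes active vitamin B6, was at 31.0, 44.3, 146 and 108 CPM, with 1.51 (SE 0.54), again without overlap. Prmt2, an arginine methyltransferase, had 1.38, Pfkl, the liver-type phosphofructokinase, 1.13 and Sumo3, a ubiquitin-like modifier, 0.98. The other 5 were Trappc10 at 0.96, the protease inhibitor Cstb at 0.85, the RNA-editing enzyme Adarb1 at 0.84, Agpat3 at 0.63 and Rrp1 at 0.17. The values of the genotypes overlapped for Agpat3, Cstb and Rrp1. For Adarb1, WT replicate 1 and Dp(10)2Yey replicate 2 were both at 92.9 CPM. For Trappc10, WT replicate 2 at 68.1 CPM lay close to Dp(10)2Yey replicate 2 at 73.6 CPM. Rrp1 was at 371, 232, 272 and 325 CPM, with both Dp(10)2Yey values between the WT values. The ion channel Trpm2 had 8 UMIs in all and was not tested. The counts behind these folds were small, as the 10 genes had between 0 and 12 UMIs each in WT replicate 1.

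S100b was carried mainly by the neurons over 20% mt- UMIs, at 0, 532, 1659 and 1597 CPM against 40.3, 46.5, 39.3 and 0 CPM in the neurons with at most 20%. This is the class with more astrocyte transcripts, and their part in the S100b values was not tested. The sum of the 6 astrocyte genes over all neurons was 929, 1451, 4034 and 1541 CPM, highest in Dp(10)2Yey replicate 1, which was also highest for S100b, and 4 of 4 tested were above 0 between genotypes (median 1.07, 0 passing and 2 at an unadjusted p under 0.05 in edgeR). Without S100b the other 9 genes ranged from 0.17 to 1.51. In the neurons with at most 20% mt- UMIs 9 genes were tested, all above 0 with a median of 0.84, and over 20% only S100b was, at 1.78. Leaving out each library gave medians of 0.97 (WT replicate 1), 1.03 (WT replicate 2), 0.87 (Dp(10)2Yey replicate 1) and 1.31 (Dp(10)2Yey replicate 2), with 1 gene below 0 in each of the first 3 of these and 0 in the last, and without Dp(10)2Yey replicate 2 S100b passed at 2.38.

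**Figure D4:**
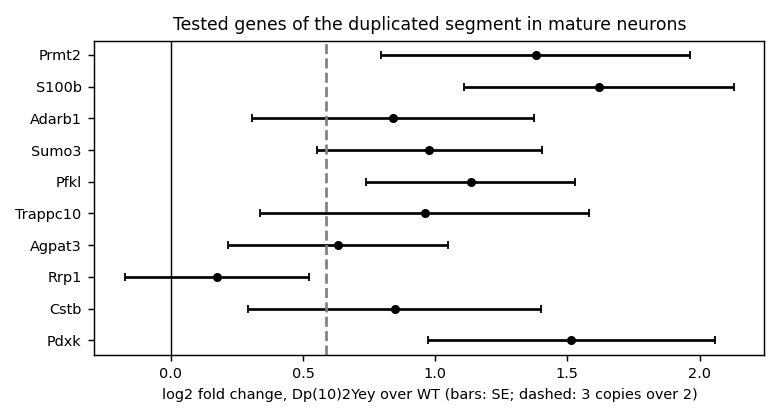
The 10 tested genes of the duplicated segment in all mature neurons, in the order of their position. Points are log2 fold changes of Dp(10)2Yey over WT (n = 2 mice each), bars are their SE, the dashed line is the log2 of 3 copies over 2, and all 10 points lie above 0.

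The subtype genes differed in level between the libraries, with no gene passing between genotypes. Dentate granule cell genes summed to 3529, 3372, 1069 and 3021 CPM, so Dp(10)2Yey replicate 1 was low and Dp(10)2Yey replicate 2 lay near the WT libraries. Of 9 dentate genes tested 1 was above 0, the median was -0.45, with C1ql3 at -0.86, Stxbp6 at -0.89 and the calcium-binding protein Calb1 at -0.45. CA1 pyramidal genes summed to 92.9, 409, 1011 and 794 CPM, with both Dp(10)2Yey libraries above both WT libraries. All 5 tested were above 0 with a median of 1.20, among them Spink8 at 2.05, Mpped1 at 1.26 and the transcription factor Pou3f1 at 1.17, and 4 had an unadjusted p under 0.05, beside 51.6% above 0 and 4.2% at that p over all 3957 genes. Of the subiculum genes, the transcription factor Etv1 had 1.49, Tshz2 had 0, 2, 8 and 23 UMIs, and the sum of the list was 31.0, 88.6, 301 and 298 CPM. WT replicate 1, with 16 neurons, had 0 neurons with 2 UMIs of the CA1 or of the subiculum list. In this library 1 UMI is 31.0 CPM, so its CA1 and subiculum sums rest on few UMIs. The filter on low counts can also admit a gene on the Dp(10)2Yey libraries alone. The 5 of 5 CA1 genes above 0 are therefore description. The number of neurons of each subtype and the RNA per neuron cannot be told apart in these sums. Among the GABAergic genes Gad1 had -0.69.

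**Figure D5:**
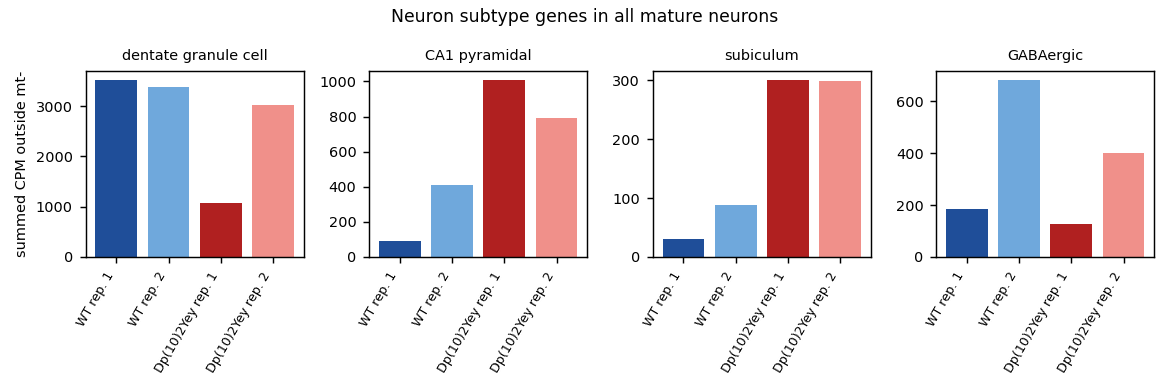
Summed CPM outside mt- genes of 4 lists of neuron subtype genes over all mature neurons of each library. Each bar is 1 library, with WT in blue and Dp(10)2Yey in red, and CA1 and subiculum genes are higher in both Dp(10)2Yey libraries than in both WT libraries.

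Between genotypes and over all neurons pooled, the synaptic and housekeeping gene lists had medians between -0.18 and 0.32, beside 0.02 over all genes, with 0 members passing in edgeR in any list. Pan-neuronal genes had 13 of 16 above 0 and a median of 0.32, excitatory genes 4 of 8 above 0 and a median of 0.03 and genes of the postsynaptic density 8 of 15 above 0 and a median of 0.09. Ionotropic glutamate receptor genes had 3 of 7 above 0 and a median of -0.13, GABA receptor genes 2 of 10 above 0 and a median of -0.18, vesicle and release genes 8 of 17 above 0 and a median of -0.05 and voltage-gated channel genes 7 of 18 above 0 and a median of -0.17. Immediate early genes, which neuronal activity and cell dissociation both raise, had 5 of 7 above 0 and a median of 0.12, with sums of 1238, 1175, 1915 and 1077 CPM. Oxidative phosphorylation genes had 49 of 81 above 0 and a median of 0.12, ribosomal protein genes 63 of 79 above 0 and a median of 0.23 and heat shock genes 6 of 7 above 0 and a median of 0.27. The pooled values sum over both classes, and the lists over 20% given above differ, and ribosomal protein genes had 26 of 79 above 0 and a median of -0.12 in the fit at 20% mt- UMIs or less, where 2 libraries held under 10 cells.

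The share of cells that were mature neurons was 1.57%, 3.56%, 2.14% and 2.34%, a mean of 2.56% ± 1.41 (SD, n = 2) in WT and 2.24% ± 0.144 (SD, n = 2) in Dp(10)2Yey. The WT libraries lay on both sides of the Dp(10)2Yey libraries, and the difference of -0.320 percentage points had a two-sided exact permutation p of 1. With 2 libraries against 2 the smallest p this test can give is 0.33, so it cannot pass any common threshold. Without WT replicate 2, the library with the most neurons, the difference was 0.677 points. The share of neurons over 20% mt- UMIs was 62.5%, 30%, 69.0% and 34.6%, so replicate 1 was high and replicate 2 low in both genotypes, with a difference of 5.54 points (exact permutation p = 0.67). The difference became -10.7 points without WT replicate 2 and changed to -11.6 when Dp(10)2Yey replicate 1 was left out, and it was 21.8 and 22.7 without the other replicate of each. The share with GABAergic UMIs was 6.25%, 13.3%, 3.45% and 7.69%, with a difference of -4.22 points (exact permutation p = 0.67). With at least 3 UMIs in place of 2 it was 0 of 16, 2 of 60, 0 of 29 and 2 of 52 neurons (limits of the counts of 0 at 18.8% and 10.3%), a difference of 0.256 points. After thinning to 1000 UMIs it was 0 of 11, 2 of 55, 0 of 28 and 1 of 44 neurons, a difference of -0.682 points, and the background in microglia was 1 of 2613 cells. The counts of 0 allow shares of up to 27.3% and 10.7%.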

How the data were processed

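The deposited matrices hold raw UMI counts per gene and barcode, which the authors made with Cell Ranger 3.0.2 on the mm10 genome as given in the submitters' processing notes, with 1 library per mouse (2 WT, 2 Dp(10)2Yey). Barcodes with at least 200 genes were used, and Scrublet in scanpy 1.11.5 called doublets, which were kept because 0 were members. UMIs were summed over the neurons of each mouse, or of each mouse and mitochondrial class, with at least 10 cells per library required for a genotype test. Sums were fitted with edgeR 4.0.16 in R 4.3.3 (TMM normalization, filterByExpr, quasi-likelihood test, Benjamini-Hochberg adjusted p under 0.01), and DESeq2 1.42.0 was an alternative tool. The filter keeps a gene that reaches a set level in as many sums as the smaller group holds. A gene can thus enter through the group where it is high alone. Counts of list members above 0, and counts of those that rose or fell, are therefore description. The fits were run on simulated data with genes changed by a log2 value of 2. There edgeR called 88 of 100 changed genes between genotypes and 54 of 54 tested genes between classes, with 1 false call each. Changed genes that the filter left out are not among the 54. The simulation gave all libraries the same profile and a fixed dispersion, and changed only genes with many UMIs. It therefore does not measure power or false calls in the real sums. Shares were compared by exact permutation of the libraries in Python 3.11.15 with numpy 2.4.6, scipy 1.17.1 and pandas 2.3.3. The printed levels are CPM without TMM. The depth of the neuronal sums was 39690, 330315, 119955 and 277467 UMIs, so in the smallest sum 1 UMI is 31.0 CPM outside mt- genes.

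Named genes were the 15 largest rises and falls between classes among those passing with the same sign in every mouse and at least 50 CPM, the 10 largest passing changes per direction between genotypes, tested duplicated genes with an unadjusted p under 0.05, genes of the segment and of interneurons picked in advance, the 15 most abundant genes, the 15 of highest fold over other cells at 100 CPM or more, the markers of the rule and up to 4 abundant genes per list. Some genes that this rule picks are left out of the text and figures. Genes outside this rule that the text names (Sst, Vip, Trappc10, Man1a and those so described in the report) were chosen after their values were seen. Members and gene lists were chosen with earlier results of these data known. The microglia used as background (P2ry12, Cx3cr1 and C1qa with at least 5 UMIs in sum), the counts of neurons with 2 UMIs of a subtype list, the shares thinned to 500 UMIs, the genes dominated by a single cell, the fits without the largest cells and without the barcode rich in platelet genes (Pf4 and Ppbp with at least 10 UMIs in sum) and the fit at 20% mt- UMIs or less were chosen after the data were seen.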

Additional observations from a re-analysis of the deposited data

Results flagged for a closer look

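For 34 gene lists the summed CPM over 20% mt- UMIs minus that at 20% or less was compared between genotypes, and 4 lists were picked out because both WT mice moved one way and both Dp(10)2Yey mice the other. For synaptic vesicle and release genes the difference between the classes was 1609, 1012, -2295 and -1989 CPM, a mean for Dp(10)2Yey minus WT of -3453. For voltage-gated channel genes it was 1949, 994, -837 and -415 CPM (-2098), with 0 of 4 genes tested passing between the classes (percent passing over all genes 20.8%). For genes of the duplicated segment it was -472, -132, 985 and 829 CPM (1209), and S100b alone was at 0, 532, 1659 and 1597 CPM over 20%. For microglial genes it was -80.5, -2.79, 72.2 and 56.5 CPM (106), at sums of at most 190.2 CPM in any class. Whether these differences between genotypes exceed chance was not tested for the list sums. In the test of single genes for the interaction of class and genotype edgeR called 0 of 501 genes (41 at an unadjusted p under 0.05) and DESeq2 0 (18 at an unadjusted p under 0.05).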

How the results depend on the processing

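The 104 genes that passed between the mitochondrial classes kept their sign under each alternative in which they could be tested, except that a split at 10% in place of 20% gave 100 of 104, with Atp1b1 at 0.14 and Meg3 at 0.12 among those on the other side of 0. The number of genes passing was 190 at an adjusted p under 0.05, 27 with the split at 10%, 30 with the split at 30%, 26 with a neuronal sum of at least 10 UMIs and 58 without the largest cell of each class and library. Without the barcode rich in platelet genes it was 102, with 101 of the 104 still passing. It was 0 in edgeR with each cell thinned to 500 UMIs, where 93 genes were tested and 26 had an unadjusted p under 0.05. Leaving out each library gave 33 to 279, with 279 without WT replicate 1, 33 without WT replicate 2, 43 without Dp(10)2Yey replicate 1 and 37 without Dp(10)2Yey replicate 2. DESeq2, DESeq2 size factors in edgeR, the model without the mouse as a block, mt- genes kept in the library sizes and no filter gave 94, 108, 94, 126 and 146, of which 88, 102, 85, 99 and 64 were among the 104. Mobp, Aldoc and Kif5a passed in each of these settings in which they could be tested. The cause was not tested.

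Between genotypes over all neurons the count of 0 became 10 with no filter, 5 with the replicate number as a block and 2 without the largest cell of each class and library, and 7 to 17 when each library was left out, which leaves 1 library in a genotype that is assumed to vary like the other genotype. It was 0 in edgeR at an adjusted p under 0.05, with DESeq2 size factors, without mt- genes, without doublets, without the barcode rich in platelet genes, with a neuronal sum of 10, with the other-cell limits at 0 and with sums thinned to the smallest library, where between 42 and 183 genes had an unadjusted p under 0.05, and 0 in DESeq2 with 30. Over 20% mt- UMIs the count of 7 became 0 in DESeq2 (22 at an unadjusted p under 0.05), 4 with DESeq2 size factors in edgeR (Meg3, Serinc1 and Lars2 among them), 0 with no filter (143) and 0 to 2 when each library was left out, namely 2 without WT replicate 1 and 0 without WT replicate 2 (120), Dp(10)2Yey replicate 1 (9) or Dp(10)2Yey replicate 2 (10). The replicate block gave 7. The cause was not tested. At 20% mt- UMIs or less the planned fit and its alternatives were not run, since 2 libraries held under 10 cells.

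The median of the duplicated genes was 1.78 in neurons over 20%, where S100b alone could be tested, and 0.87 to 1.31 when each library was left out, the highest without Dp(10)2Yey replicate 2, which left 8 genes. With the replicate block it was 0.91, with DESeq2 size factors 0.97, without mt- genes 0.96 and at 20% mt- UMIs or less 0.84. The difference in the share of mature neurons was -1.32 to 0.677 points when each library was left out, above 0 at 0.677 without WT replicate 2. For the share over 20% it was -11.6 to 22.7, below 0 at -10.7 without WT replicate 2 and -11.6 when Dp(10)2Yey replicate 1 was left out, and -4.70 with the split at 10%. For the GABAergic share it was -7.76 to -0.680, and 0.256 with at least 3 UMIs in place of 2. With a neuronal sum of at least 10 UMIs the differences in the 3 shares were -0.694, 5.90 and -9.28 points, and with the other-cell limits at 0 they were -0.190, 0.319 and -1.22, against -0.320, 5.54 and -4.22 as planned, with exact permutation p values of 0.33 to 1. The cause was not tested.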

Other observations

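The entries for the reporter genes eGFP and tdtomato had 0 UMIs in the mature neurons of each library and 0 UMIs in all other cells.

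The values come from 2 male mice per genotype at 1 age, with 157 neurons that passed dissociation and the rule on 5 UMIs. Neurons left out by the limits on other-cell genes are not described, and neurons that dissociation loses are not seen. Free RNA and fragments of other cells in the droplets were not removed, and their part in any value was not tested. Neurons of different subtypes are summed, so the mix of subtypes and the RNA of each neuron cannot be told apart. The genotype fits rest on 2 libraries against 2, of which WT replicate 1 held 16 neurons. Protein, splicing and position in the tissue were not measured here.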
